A study of Mus musculus with 2 samples.

Results

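The genes described here were 10 genes that mark lipid-associated macrophages: Spp1, Apoe, Lpl, Lgals3, Trem2, Tyrobp, Cd44, Gpnmb, Cd9 and Fabp5. They were taken by symbol from a table of 19059 genes, and all 10 were found in every matrix. The cells came from orthotopic glioblastomas grown in C57BL/6J mice from mGSC, a single mouse glioblastoma stem cell line of genotype Trp53+/- and Nf1+/-. Mice received vehicle or Xevinapant, an oral SMAC mimetic that antagonises inhibitor of apoptosis proteins, daily for a week, and hosts of both groups carried the same implanted line. Single-cell RNA was measured with a probe-based assay on fixed cells, in which each gene is counted through its own probes, so levels were compared between samples and classes of cells and not between genes.

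Lipid-associated macrophages are phagocytes that take up lipid from dying cells and debris, and they have been described in fat, atherosclerotic vessels, demyelinated brain and tumors. Trem2 is a surface receptor for lipids and lipoproteins that signals through the adaptor Tyrobp, and its ligands include Apoe. The state is recognised by secreted factors such as osteopontin (Spp1), by lipid-handling proteins such as Lpl and Fabp5, and by the lysosome-associated glycoprotein Gpnmb.

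Spp1 lies at chr5:104435118-104441050 on the plus strand of GRCm38, Gpnmb at chr6:49036546-49070929 and Trem2 at chr17:48346401-48354147. The promoter windows of Spp1 and Gpnmb are shown because these 2 genes had the highest ratio of joint to separate detection in macrophages of any pair of the 10. Each window runs from 250 bases before to 50 bases after a RefSeq start site (GRCm38.p6, plus strand for both), and capitals mark a match to a searched motif.
Spp1 promoter, chr5:104434861-104435160: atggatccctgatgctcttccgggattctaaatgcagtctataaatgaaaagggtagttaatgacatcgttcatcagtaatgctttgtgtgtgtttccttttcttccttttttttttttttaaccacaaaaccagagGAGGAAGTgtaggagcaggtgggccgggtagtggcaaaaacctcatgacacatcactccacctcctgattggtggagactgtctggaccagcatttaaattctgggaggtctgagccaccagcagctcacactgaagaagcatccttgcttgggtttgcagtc
Gpnmb promoter, chr6:49036268-49036567: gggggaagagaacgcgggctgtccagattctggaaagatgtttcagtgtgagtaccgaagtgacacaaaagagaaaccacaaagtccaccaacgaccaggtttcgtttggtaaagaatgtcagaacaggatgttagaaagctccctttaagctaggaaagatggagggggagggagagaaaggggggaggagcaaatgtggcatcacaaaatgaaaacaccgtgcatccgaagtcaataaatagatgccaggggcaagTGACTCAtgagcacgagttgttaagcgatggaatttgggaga
The capitals in the Spp1 window are a PU.1-type ETS motif (GAGGAAGT or its reverse complement ACTTCCTC) that starts at base -113, and those in the Gpnmb window are an AP-1 motif (TGACTCA or its reverse complement TGAGTCA) that starts at base 9 after the start site. Both motifs and the E-box CACGTG were searched on both strands of the 10 windows of the 7 members that had an entry, and these were the only 2 matches. Spp1 has a second entry in the table, chr5:104435942-104436241, which held no match and is not printed. Of all 32851 promoter windows of this length, 3.2% held the ETS motif, 5.2% the AP-1 motif and 7.15% the E-box, so the matches are a description of the letters alone.

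The files held 4 matrices per group. In 3 cases a pair of matrices was more alike in tumor cell expression than the other pairs of a group and was joined. The joined samples are called vehicle 1+3, Xevinapant 1+2 and Xevinapant 3+4 here, and with vehicle 2 and vehicle 4 they gave 3 vehicle and 2 Xevinapant samples. The cause of the likeness was not tested. Single matrices held 4505 to 14728 barcodes, with a median of 7452 to 14027 UMIs (unique transcript counts) per barcode. Each treatment was one pool with its own batch date and its own molecule label, so pool, batch and treatment cannot be told apart. Of 54574 cells past the study's filters, 932 carried a barcode also present in the other group, among them 7 of 864 macrophages.

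Cells were assigned to classes by UMIs of marker panels that contained none of the 10 genes. This gave 864 macrophages (Ms4a7, Mrc1, Pf4 and related genes), 282 microglia (P2ry12, Tmem119, Sall1 and related genes), 286 monocytes (Ccr2, Plac8, Chil3 and related genes) and 33395 tumor cells (Olig1, Olig2, Sox10, Pdgfra and related genes), and 1350 myeloid cells were left unresolved because no panel led clearly. Of all 50669 kept cells, 12980 were given no class. Genes outside the panels were read as a check of the macrophage, monocyte and tumor labels. Arg1 stood at a mean of 1656 CPM (a gene's UMIs scaled to a common total of counts, after summing the cells of a class in a sample) in macrophages against 11.5 CPM in microglia, S100a4 at 2279 CPM in monocytes against 278.9 CPM in macrophages (Lyz2, of the same list, went the other way, with 3723 CPM against 4483 CPM), and Gpr17 at 747.9 CPM in tumor cells against 39.8 CPM in macrophages. Sparc, listed as a microglia gene, went the other way, with 255.0 CPM in microglia and 461.0 CPM in macrophages, and the C1q genes were at least as high in microglia as in macrophages. Ly6c2, a defining monocyte gene, and Cx3cr1, a defining microglia gene, were not analysed here. Unresolved myeloid cells carried both signatures, with 2424 to 3407 CPM of the microglia panel and 2377 to 3114 CPM of the macrophage panel.

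Of the secreted factors, Spp1 was highest in macrophages. It stood at 15640, 23060 and 7577 CPM in the macrophages of vehicle 1+3, vehicle 2 and vehicle 4, and at 10080 and 7148 CPM in those of Xevinapant 1+2 and Xevinapant 3+4. The highest value, that of vehicle 2, rests on 25 macrophages. The lowest of these macrophage samples lay above every sample of every other class, but only just above the monocytes of vehicle 1+3 at 6974 CPM. Unresolved myeloid cells had the next highest mean, 3142 ± 1092 CPM (SD, n = 5). Monocytes at 2237 ± 3231 CPM (n = 4), fibroblast and mural cells at 805.3 ± 799.6 CPM (n = 5) and microglia at 739.3 ± 821.5 CPM (n = 5) overlapped one another. Tumor cells had 8.67 ± 6.42 CPM (n = 5).

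Apoe, the lipid carrier of lipoproteins and a ligand of Trem2, was not particular to macrophages. Its levels in microglia, unresolved myeloid cells and macrophages were 36470 ± 11110, 33980 ± 4259 and 27640 ± 3098 CPM (SD, n = 5 each), with overlapping samples, and monocytes had 4294 ± 2263 CPM (n = 4). Lpl, which hydrolyses the triglycerides of lipoproteins, followed the order macrophages (1204 ± 406.6 CPM), unresolved myeloid cells (799.4 ± 288.5 CPM), microglia (657.7 ± 206.1 CPM) and monocytes (184.6 ± 118.8 CPM), and only the last step was free of overlap. Lgals3, which encodes the secreted lectin galectin-3, stood at 5624 ± 750.4 CPM in macrophages, above every sample of unresolved myeloid cells (2966 ± 963.5 CPM).

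The receptors were less particular to macrophages. Trem2 stood at 547.5, 339.9 and 357.8 CPM in the macrophages of vehicle 1+3, vehicle 2 and vehicle 4, and at 395.2 and 411.0 CPM in those of Xevinapant 1+2 and Xevinapant 3+4. In microglia the corresponding values were 298.6, 390.4, 269.0, 324.0 and 345.1 CPM. The ranges of both classes overlapped, while all 4 monocyte samples were lower, at 13.5 to 147.3 CPM. Tyrobp, the signalling adaptor of Trem2 and of several other myeloid receptors, was highest in neutrophils (4088 ± 414.4 CPM, n = 3) and had a lower mean in macrophages (2333 ± 251.0 CPM, n = 5) than in unresolved myeloid cells, microglia and monocytes. Cd44, a receptor for hyaluronan and osteopontin, was also highest in neutrophils (1208 ± 244.3 CPM, n = 3), followed by monocytes (703.7 ± 143.3 CPM, n = 4) and macrophages (376.6 ± 17.4 CPM, n = 5).

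Gpnmb stood at 3952, 3121 and 3248 CPM in the macrophages of vehicle 1+3, vehicle 2 and vehicle 4, and at 2732 and 2987 CPM in those of Xevinapant 1+2 and Xevinapant 3+4. Unresolved myeloid cells had 1103 ± 484.7 CPM (SD, n = 5), below every macrophage sample, and microglia ranged from 63.0 to 1872 CPM. The monocytes of vehicle 1+3, at 2760 CPM, lay above the lowest macrophage sample. Tumor cells had 62.7 ± 25.9 CPM. Fabp5, a cytosolic fatty acid carrier, reached 1893 ± 485.5 CPM in macrophages and 528.8 ± 42.8 CPM in tumor cells. Cd9, a tetraspanin of many cell types, had its highest mean in neutrophils (2461 ± 1432 CPM, n = 3). These neutrophil samples, at 1509 to 4108 CPM, overlapped those of tumor cells, and the highest, vehicle 1+3, rests on 16 cells. Cd9 was higher in tumor cells (2223 ± 551.9 CPM) than in macrophages (853.0 ± 362.9 CPM), without overlap between the 5 samples of each class.

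**Figure D1:**
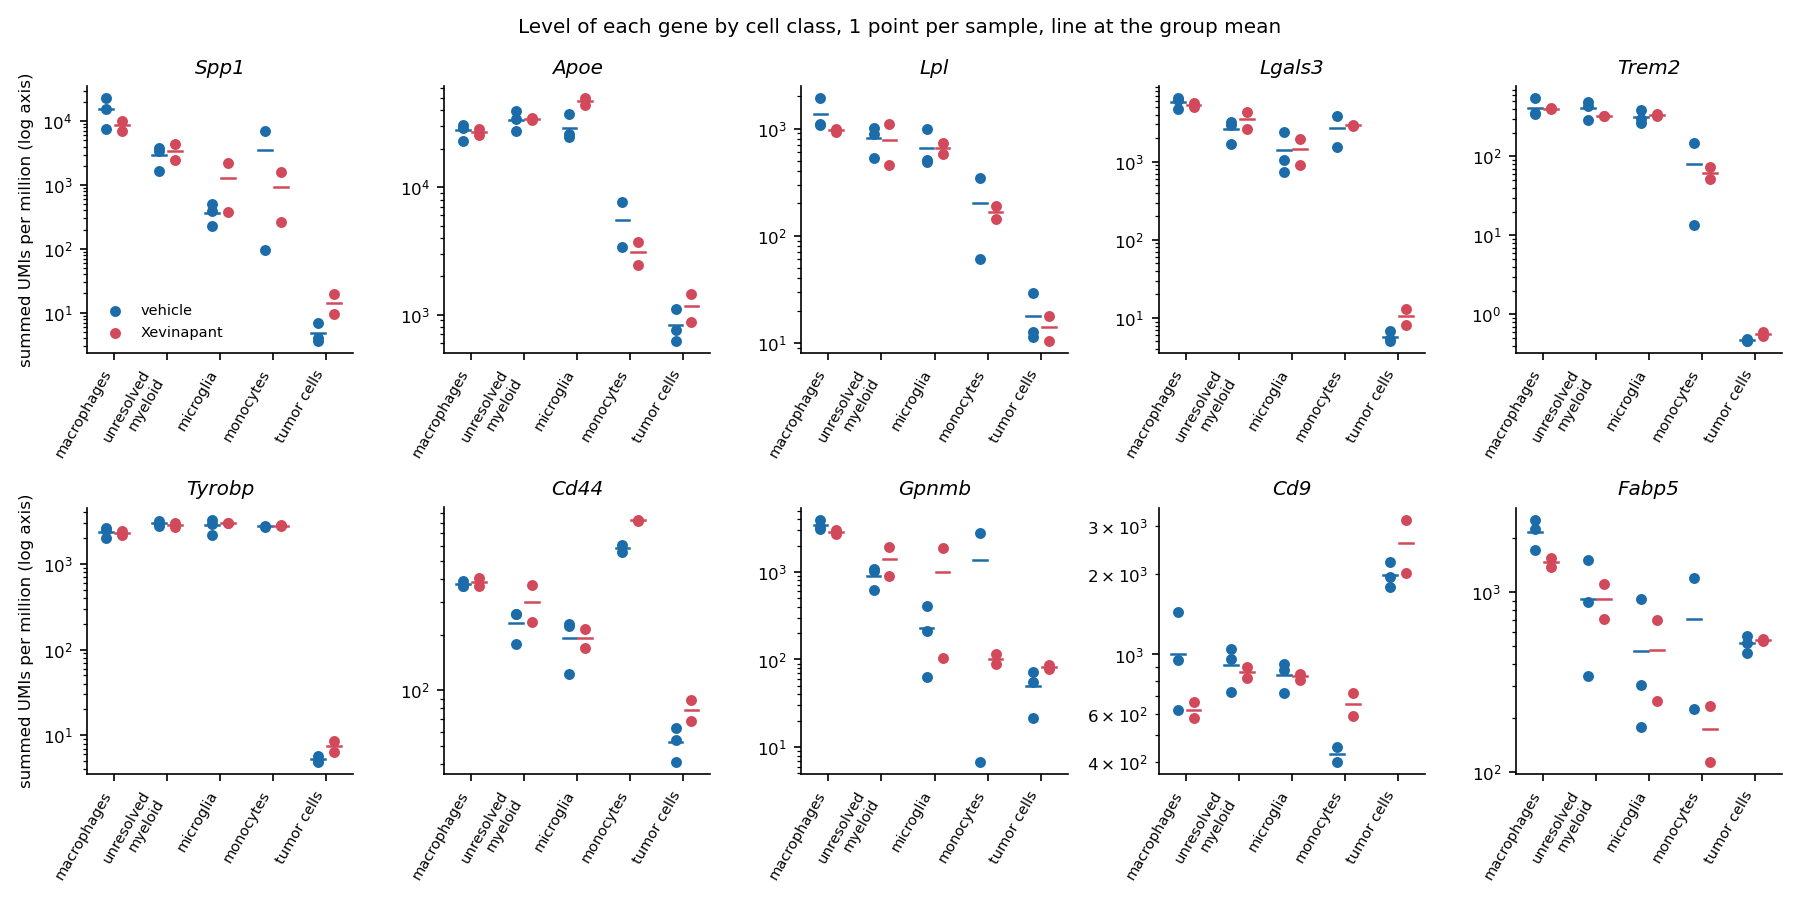
Level of each of the 10 genes in CPM summed over the cells of a class (log axis), by class; each point is a sample with at least 10 cells of the class, blue for vehicle and red for Xevinapant, and lines are group means. The classes shown are macrophages, unresolved myeloid cells, microglia, monocytes and tumor cells. Spp1 macrophage samples sit between 7148 and 23060 CPM, above all other classes shown. Tyrobp has a lower mean in macrophages than in the other myeloid classes shown.

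Macrophages were tested against the other classes with edgeR's quasi-likelihood test on summed counts, with the sample as a block. Against microglia, 6 of the 10 genes were higher in macrophages at a Benjamini-Hochberg adjusted p under 0.05, beside 19.9% of all 8003 genes tested in either direction. Spp1 was higher by 4.51 ± 0.52 (log2 fold change ± SE, adjusted p = 4.33e-05), Gpnmb by 3.82 ± 0.60, Fabp5 by 2.37 ± 0.31, Lgals3 by 2.25 ± 0.28, Cd44 by 1.13 ± 0.16 and Lpl by 0.99 ± 0.17. Over all alternative settings Spp1 ran from 2.639 to 5.058, Gpnmb from 2.326 to 4.567, Fabp5 from 1.458 to 2.672 and Lgals3 from 1.398 to 2.441. With a sample left out the lowest values of these genes were 4.041, 3.296, 2.114 and 1.998, so the lower ones came from other settings. In every setting 6 to 7 of the 10 genes passed. Trem2 differed by 0.48 ± 0.17 (edgeR adjusted p = 0.0619), and without vehicle 2 by 0.58 (edgeR adjusted p = 0.0255). Apoe, Tyrobp and Cd9 did not pass, with log2 fold changes of -0.23 ± 0.33, -0.16 ± 0.20 and 0.06 ± 0.18.

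Against monocytes, 4 samples could be paired within a sample, since vehicle 2 held only 4 monocytes. Here 7 of the 10 genes were higher in macrophages and 1 was lower, beside 24.6% of 8573 genes. The increases ran from 1.14 for Lgals3 to 4.28 for Gpnmb on the log2 scale, with Spp1 at 3.67 ± 0.59, Apoe at 2.996 ± 0.228, Trem2 at 2.83 ± 0.24, Lpl at 2.71 ± 0.27 and Fabp5 at 2.71 ± 0.33. Cd44 was lower in macrophages (-0.79 ± 0.16, edgeR adjusted p = 0.00158), Tyrobp differed by -0.07 ± 0.16, and Cd9 by 0.46 ± 0.20 (edgeR adjusted p = 0.11), or 0.71 without Xevinapant 1+2 (edgeR adjusted p = 0.0332). Without the sample block, Spp1 and Gpnmb no longer passed, with 2.32 (edgeR adjusted p = 0.098) and 2.36 (edgeR adjusted p = 0.139). Spp1, Gpnmb, Fabp5, Lgals3 and Lpl passed as higher against both classes, Cd44 passed as higher than in microglia and lower than in monocytes, and Trem2 and Apoe passed it against monocytes alone.

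Against tumor cells all 10 genes passed, 9 higher and Cd9 lower (-1.07 ± 0.25, edgeR adjusted p = 0.00329), beside 67.7% of 13424 genes. The median log2 fold change of all genes was -0.36 in this comparison. Spp1 was higher in macrophages by 11.01 ± 0.63, Trem2 by 10.01 ± 0.20, Lgals3 by 9.97 ± 0.31 and Tyrobp by 8.98 ± 0.22, and the smallest increases were those of Cd44 (2.99 ± 0.17) and Fabp5 (2.18 ± 0.18).

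Other genes of the same pathways were read from lists written for this report. Of 18 other lipid-associated macrophage genes tested, 11 were higher and 2 lower in macrophages than in microglia, with a median log2 fold change of 0.93 beside -0.0014 for all genes, of which 10.9% were higher and 9.01% lower. The examples given for this comparison were chosen after their values were seen. Fabp4, a second fatty acid carrier, was higher by 4.52 ± 0.44, the lysosomal protease Ctsl by 3.74 ± 0.21, and the lipid droplet coat gene Plin2 by 2.36 ± 0.18, while the phagocytic receptor Axl (-1.51 ± 0.25) and the integrin Itgax (-0.80 ± 0.26) were lower. Of 17 lipid uptake, storage and efflux genes, 7 were higher and 1 was lower (median 0.43), of 16 lysosome genes 6 were higher and 1 was lower (median 0.46), and of 12 TREM2 signalling genes 4 were higher and 2 lower (median -0.13). Among 6 osteopontin receptor genes tested, Itga5 was higher (1.12 ± 0.17) and Itgb5 and Itga9 were lower (-1.08 ± 0.17 and -1.03 ± 0.18). The list of homeostatic microglia genes had 3 lower and 1 higher of 8.

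Against monocytes, 14 of 16 lysosome genes were higher and 1 was lower in macrophages (median 1.39), as were 13 higher and 1 lower of 18 other lipid-associated macrophage genes (median 2.25) and 11 higher and 2 lower of 18 lipid uptake, storage and efflux genes (median 0.60). Over all genes the median was -0.0027, and 12.1% were higher and 12.5% lower. TREM2 signalling genes showed no increase that passed, and 4 of 12 were lower (median -0.04).

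Detection in single cells was compared after every cell was reduced at random to 2000 UMIs, since depth differed between cells, and cells with fewer UMIs were left out (6 to 47 macrophages a sample). At this depth 54.5% ± 15.5 of macrophages had a Spp1 UMI, 47.4% ± 12.9 a Gpnmb UMI and 51.3% ± 8.1 a Trem2 UMI (SD, n = 5). In endothelial cells, which should lack these genes, the mean shares were 1.66%, 2.66% and 0% at the same depth, and single endothelial samples reached 6.98% for Spp1 and 8.33% for Gpnmb. The median UMIs per cell before this step were 3354 to 7098 over the macrophage samples and 3743 to 6310 over the endothelial samples. In microglia 33.5% ± 8.6 of cells had Spp1, 13.8% ± 9.0 Gpnmb and 49.2% ± 6.1 Trem2. In monocytes the shares were 18.2% ± 8.5, 8.93% ± 10.1 and 7.00% ± 3.73 (n = 4). For Gpnmb, 3 of 4 monocyte samples (0% to 6.36%) and 2 of 5 microglia samples (4.69% and 7.14%) lay below the highest endothelial sample. Detection alone does not set these samples apart from endothelial cells, and the cause was not tested. Summed Gpnmb levels were 0 to 59.7 CPM in endothelial samples, 63.0 to 1872 CPM in microglia and 6.75 to 2760 CPM in monocytes.

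All 3 of Spp1, Gpnmb and Trem2 were found in 41.7%, 21.1% and 14.3% of the macrophages of vehicle 1+3, vehicle 2 and vehicle 4, and in 21.5% and 19.8% of those of Xevinapant 1+2 and Xevinapant 3+4. These shares rest on 84, 19 and 63 vehicle macrophages and on 390 and 177 Xevinapant macrophages. The 2 Xevinapant samples lay inside the vehicle range. Unresolved myeloid cells had 5.06% to 15.8% and microglia 3.13% to 11.1%, the latter from only 1 to 4 such cells a sample. No tumor cell of any sample had all 3, which allows shares of up to 0.0317% to 0.0772% by sample for counting error alone.

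**Figure D2:**
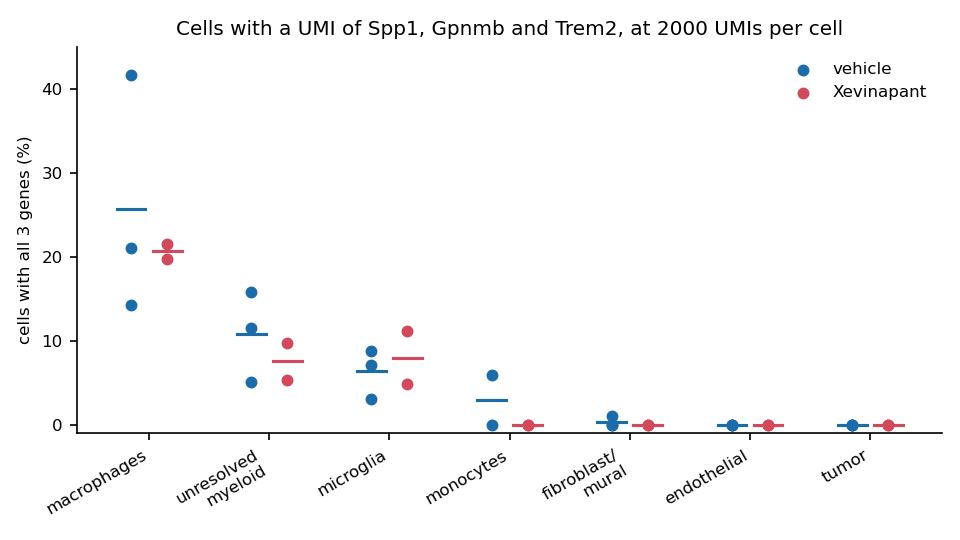
Percentage of cells with a UMI of Spp1, Gpnmb and Trem2 at 2000 UMIs per cell, by class; points are samples with at least 10 such cells, blue for vehicle and red for Xevinapant, and lines are group means. Macrophage samples run from 14.3% to 41.7%, and tumor and endothelial samples sit at 0%.

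Spp1 and Gpnmb were found together in 40.0% of macrophages on average, against 27.1% for the product of the separate shares. The ratio of the observed share to this product was 1.38, 1.44 and 2.28 in vehicle 1+3, vehicle 2 and vehicle 4, and 1.24 and 1.76 in Xevinapant 1+2 and Xevinapant 3+4. It was above 1 in all 5 samples and had the highest mean of all pairs (1.62 ± 0.42, SD, n = 5). Gpnmb with Fabp5 followed at 1.48 ± 0.28, Gpnmb with Cd9 at 1.31 ± 0.28 and Spp1 with Fabp5 at 1.29 ± 0.15. Trem2 with Gpnmb had 1.10 ± 0.20, with vehicle 2 below 1 at 0.768, and Trem2 with Fabp5 had 0.96 ± 0.14. Pairs with Apoe lay within 0.995 and 1.001 on average, with an Apoe UMI in 99.5% of macrophages, which leaves the ratio little room to move. The larger of the 2 separate shares sets a ceiling on every ratio. Pairs with Tyrobp (found in 94.8% of macrophages) and Lgals3 (81.2%) are limited in this way too, so pairs were not ranked on equal terms. Cells at one fixed depth still share their sample and its free RNA, so these ratios are descriptions without a test.

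**Figure D3:**
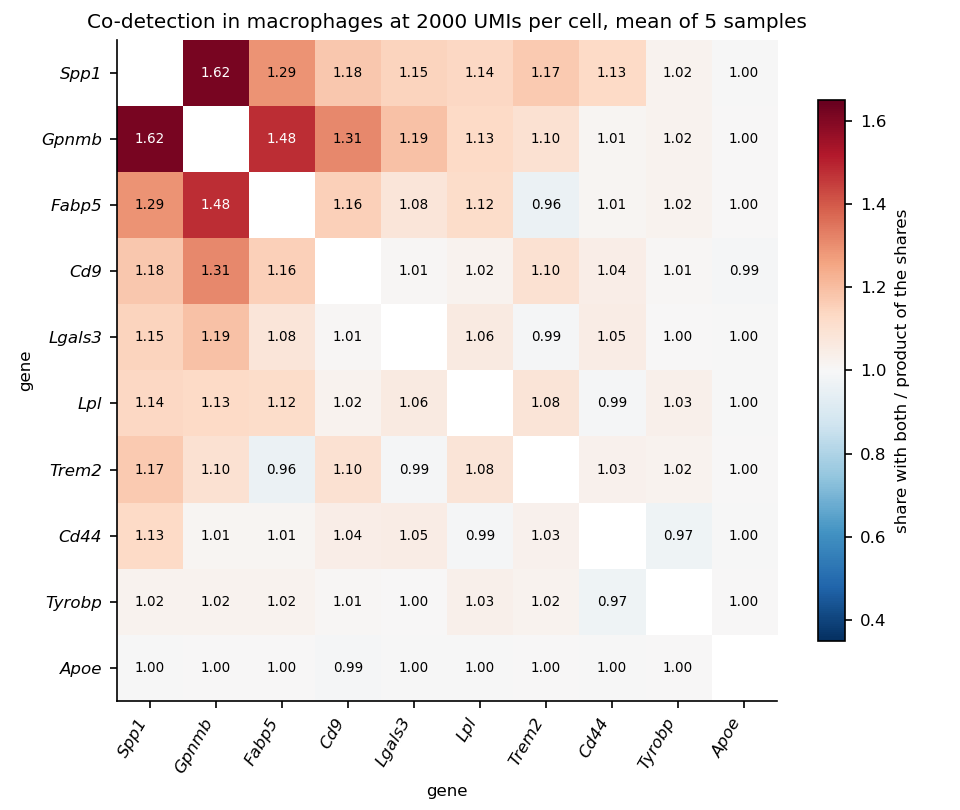
Mean over 5 samples of the share of macrophages with both genes divided by the product of the 2 separate shares, at 2000 UMIs per cell; rows and columns are genes and colour gives the ratio. The Spp1 and Gpnmb pair has the highest ratio, 1.62. Pairs with Apoe and Tyrobp, found in 99.5% and 94.8% of macrophages, stay near 1 and have little room to move.

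Macrophages with a Gpnmb UMI also had more of most other genes. Spp1 stood at 22380, 44610, 13660, 13840 and 11820 CPM in Gpnmb-positive macrophages of the 5 samples, in the order vehicle 1+3, vehicle 2, vehicle 4, Xevinapant 1+2 and Xevinapant 3+4. In Gpnmb-negative macrophages it stood at 1154, 232.1, 2780, 5087 and 999.2 CPM. Every sample was higher among the positive cells, with a median fold of 11.8 and a range of 2.72 to 192.2, the highest from vehicle 2 with 11 positive and 8 negative cells. Fabp5 was higher by a median of 5.73-fold, Lgals3 by 2.88-fold, Lpl by 2.03-fold, Cd9 by 1.77-fold and Trem2 by 1.61-fold, each in 5 of 5 samples. Apoe and Tyrobp had median folds of 1.08 and 1.05 and were higher in 3 and 4 of 5 samples.

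Arg1, an arginine-degrading enzyme that marks a subset of tumor macrophages, was found in 15.9% to 55.4% of macrophages at this depth. Spp1 was higher in Arg1-positive macrophages in 5 of 5 samples (median 2.13-fold, range 1.21 to 6.02) and Gpnmb in 4 of 5 (median 2.19-fold, range 0.697 to 3.90), whereas Trem2 had a median fold of 1.05 and Tyrobp was lower in all 5 samples (median 0.878-fold).

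The levels were unevenly spread over macrophages. The 10% of macrophages with the highest Gpnmb level held a median of 67.9% of its summed level over samples (range 32.3 to 81.0%), and for Spp1 the corresponding value was 56.9% (30.9 to 82.6%). Lpl and Fabp5 had 49.9% and 49.1%. Trem2 (31.4%), Apoe (28.4%) and Tyrobp (21.6%) were spread more evenly. These shares also rise where a gene has few UMIs per cell, and no correction for that was made.

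Counting all kept cells, macrophages made up 0.373% to 5.13% of a sample but held 31.7% to 62.4% of its Spp1 UMIs. Cells given no class were 17.6% to 35.3% of a sample. On average they held 5.68% of Spp1, 14.65% of Gpnmb, 17.5% of Cd44 and 10.2% of Apoe UMIs. Unresolved myeloid cells held 14.6% to 38.6% of the Spp1 UMIs, and tumor cells, 47.0% to 76.6% of all cells, held 2.23% to 8.01%. Trem2 UMIs were mostly in unresolved myeloid cells (47.8% ± 14.6, SD, n = 5) and macrophages (29.3% ± 19.4). In contrast, tumor cells held 88.8% ± 5.5 of Cd9 UMIs, 83.3% ± 9.7 of Fabp5 UMIs, 65.6% ± 14.98 of Cd44 UMIs, 49.0% ± 17.7 of Gpnmb UMIs and 46.8% ± 15.2 of Apoe UMIs. Their levels were low for the last 2 genes, at 21.4 to 86.6 CPM of Gpnmb and 626.4 to 1454 CPM of Apoe. Endothelial samples overlapped both ranges, with 0 to 59.7 CPM of Gpnmb and 285.7 to 1309 CPM of Apoe. The part of cell number and free RNA in these tumor shares was not tested.

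**Figure D4:**
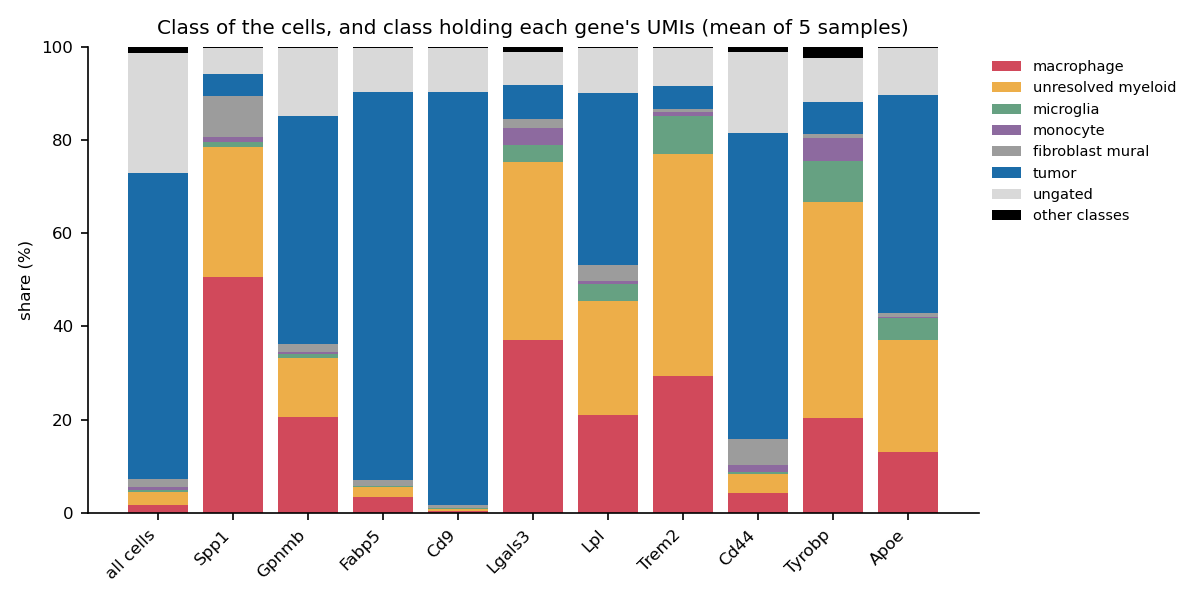
Share of all kept cells (first bar) and of each gene's UMIs (other bars) by class, in percent, mean of 5 samples, stacked to 100%. Macrophages are a thin band of the cells but hold 50.6% of Spp1 UMIs, and tumor cells hold 88.8% of Cd9 UMIs.

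Whether Xevinapant changed these genes was tested within each class with edgeR's quasi-likelihood test, over all genes of the class. In macrophages 0 of the 10 genes passed an adjusted p of 0.05, and 0 of the 10 had an unadjusted p under 0.05. Over all genes 0.0324% passed, 3 of 9259, and 13.6% had an unadjusted p under 0.05. DESeq2 called 0 of the 10 and 100 of all genes. Spp1 averaged 15430 ± 7744 CPM in vehicle macrophages (SD, n = 3) and 8614 ± 2073 CPM in Xevinapant macrophages (n = 2), a log2 fold change of -0.82 ± 0.43 (edgeR adjusted p = 0.439, 95% interval by the normal approximation -1.67 to 0.02). Its groups overlapped, since vehicle 4 lay between both Xevinapant samples. With a sample left out the Spp1 value ran from -1.13 to -0.405, and over all alternative settings it reached -0.27. Gpnmb differed by -0.25 ± 0.24 (95% interval -0.73 to 0.22) and Trem2 by -0.05 ± 0.25 (95% interval -0.53 to 0.44). The Gpnmb value turned to 0.16 when the leading panel alone named a cell. The other 7 genes ran from -0.68 to 0.06. Without vehicle 1+3 the Trem2 value was 0.22. Fabp5 stood at 2544, 2247 and 1731 CPM in the macrophages of vehicle 1+3, vehicle 2 and vehicle 4, and at 1556 and 1389 CPM in those of Xevinapant 1+2 and Xevinapant 3+4. The groups of Fabp5, of Gpnmb and of Lpl (933.2 to 991.1 CPM in Xevinapant, 1083 to 1922 CPM in vehicle) did not overlap, and none of the 3 passed (edgeR adjusted p = 0.391, 0.702 and 0.514). The share of all genes that separate in this way was not counted, so this is not read as a result about these genes.

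Panel levels also moved with treatment in macrophages. UMIs of the tumor panel stood at 679.9 to 876.2 CPM in vehicle and at 219.0 to 349.6 CPM in Xevinapant macrophages, beside 5712 to 7314 CPM in tumor cells. UMIs of the macrophage panel stood at 2970 to 4716 CPM in vehicle and 6468 to 8293 CPM in Xevinapant macrophages. Those of the monocyte panel stood at 103.9 to 299.4 CPM and 435.9 to 513.3 CPM, and those of the microglia panel overlapped. Mitochondrial UMIs were 0.879% to 1.22% in vehicle and 0.595% to 0.829% in Xevinapant macrophages. Their part in the values above was not tested. The study describes individual mice, with as many sequenced tumors in each group as there are matrices, and the labels name 1 pool a group, so it is not settled that the matrices or the joined samples are separate animals, and p-values measure the spread between these samples, which may be technical. With each matrix counted as 1 mouse, 0 of the 10 genes passed in macrophages, microglia, monocytes or tumor cells, while 327 of all genes passed in macrophages and 469 in tumor cells.

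In microglia 0 of 10 genes passed, beside 0.0133% of 7511 genes, although 3 had an unadjusted p under 0.05, beside 4.43% of all genes. DESeq2 called 0 of the 10 and 2 of all genes. Spp1 stood at 386.4, 230.7 and 497.2 CPM in the microglia of vehicle 1+3, vehicle 2 and vehicle 4, and at 2199 and 383.1 CPM in those of Xevinapant 1+2 and Xevinapant 3+4. Gpnmb stood at 214.3, 408.1 and 63.0 CPM in the vehicle samples and at 1872 and 103.8 CPM in the Xevinapant samples. For both genes only Xevinapant 1+2 was high, and Xevinapant 3+4 lay within the vehicle range. The log2 fold changes were 1.83 ± 0.51 for Spp1 and 2.39 ± 0.84 for Gpnmb, both with an edgeR adjusted p of 0.967. Without Xevinapant 1+2 they were 0.03 and -0.87, and without Xevinapant 3+4 they were 2.63 and 3.31 and passed (edgeR adjusted p = 0.00872 and 0.0148), with the lone Xevinapant sample then assumed to vary like the vehicle samples. Apoe was the third gene with a low unadjusted p, at 0.74 ± 0.30. The macrophage panel stood at 1198 to 1452 CPM in vehicle and at 1721 to 1747 CPM in Xevinapant microglia. The microglia panel stood at 3313 to 3838 CPM and 4418 to 4687 CPM, and the tumor panel at 780.8 to 1170 CPM and 557.3 to 656.5 CPM. Mitochondrial UMIs were 1.26% to 1.99% in vehicle and 0.984% to 1.1% in Xevinapant microglia. The part of these in the Spp1, Gpnmb and Apoe values was not tested.

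The difference between the treatment effects in macrophages and in microglia was tested as an interaction, and 0 of 10 genes passed, beside 0.022% of 9073 genes (1 of the 10 at an unadjusted p under 0.05, beside 6.02% of all genes, and 0 of either by DESeq2). Spp1 gave -2.02 ± 0.74 (edgeR adjusted p = 0.668), Gpnmb -1.72 ± 1.03 and Trem2 -0.16 ± 0.35. With a sample left out the Spp1 value ran from -3.10 to -1.05. Without Xevinapant 3+4 the Gpnmb value was -3.82 and passed (edgeR adjusted p = 0.00475), with a lone Xevinapant sample again, and without Xevinapant 1+2 it was 0.51.

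In monocytes, with 2 samples per group, 0 of 10 genes passed, as did 0% of 7457 genes, with 659 genes (8.84%) and 4 of the 10 at an unadjusted p under 0.05. DESeq2 called 4 genes of all and 0 of the 10. Gpnmb stood at 2760 CPM in vehicle 1+3 and 6.75 CPM in vehicle 4, and at 88.0 and 116.7 CPM in Xevinapant 1+2 and Xevinapant 3+4. The high value came from a single sample, in which 17.4% of 23 monocytes had a Gpnmb UMI. The fitted difference was -3.72 ± 1.27 (edgeR adjusted p = 0.47), and without vehicle 1+3 it turned to 3.93 and passed (edgeR adjusted p = 0.0124). With any of the other 3 samples left out it passed in the lower direction, from -4.73 to -3.52. Spp1 likewise went from -1.89 ± 1.29 (edgeR adjusted p = 0.709) to 3.38 without vehicle 1+3 (edgeR adjusted p = 0.037), to -2.86 without vehicle 4 (edgeR adjusted p = 0.0304) and to -3.72 without Xevinapant 1+2 (edgeR adjusted p = 5.73e-10). The direction of Spp1 and Gpnmb in monocytes depended on vehicle 1+3, and it also turned under a stricter gate. Each fit with a sample left out has 1 sample in a group. That sample is then assumed to vary like those of the other group, so these fits show only how far the values move. Fabp5 stood at 1198 and 222.7 CPM in vehicle and at 113.4 and 231.8 CPM in Xevinapant monocytes, a difference of -1.98 ± 0.63 that passed without vehicle 4 (-2.78, edgeR adjusted p = 0.000535) and without Xevinapant 3+4 (-2.58, edgeR adjusted p = 2.5e-05) and was -0.32 without vehicle 1+3. The levels of Cd9 (0.66 ± 0.25) and Cd44 (0.54 ± 0.24) lay higher in both Xevinapant samples than in both vehicle samples, and neither gene passed. How many of all genes separate in this way was not counted.

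In tumor cells 0 of 10 genes passed by edgeR, as did 0% of 14348 genes, with 1439 genes (10%) and 3 of the 10 at an unadjusted p under 0.05. DESeq2 called 208 genes of all and 1 of the 10, Spp1. Spp1 stood at 6.93, 3.96 and 3.66 CPM in the tumor cells of vehicle 1+3, vehicle 2 and vehicle 4, and at 19.4 and 9.43 CPM in those of Xevinapant 1+2 and Xevinapant 3+4, without overlap. How many of all genes separate in this way was not counted. The log2 fold change of Spp1 was 1.54 ± 0.40 (edgeR adjusted p = 0.486, DESeq2 adjusted p = 0.026), and it ran from 0.90 to 1.975 with a sample left out. Over all 5 samples Spp1 averaged 8.67 CPM in tumor cells and 8.59 CPM in endothelial cells, which should lack it. In endothelial cells it stood at 5.30 ± 5.01 CPM in vehicle (SD, n = 3) and 13.5 ± 10.9 CPM in Xevinapant (n = 2). The macrophage panel in the same tumor cells stood at 8.51, 5.87 and 7.01 CPM in vehicle and at 21.4 and 8.90 CPM in Xevinapant, and macrophages were 0.373% to 1.19% of vehicle and at most 5.13% of Xevinapant cells, above the vehicle range in both samples. The part of these in the Spp1 value was not tested. Lgals3 (0.84 ± 0.29) and Cd44 (0.54 ± 0.19) were the other members with a low unadjusted p, and Gpnmb differed by 0.70 ± 0.43. With a sample left out these values ran from 0.43 to 1.16, 0.35 to 0.70 and 0.34 to 1.06.

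The unresolved myeloid cells, a class tested after the data were seen, gave 0 of 10 genes (0 at an unadjusted p under 0.05, beside 9.3% of all genes), against 0.0633% of 11051 genes. DESeq2 called 0 of the 10 and 25 of all genes. Spp1 differed by 0.24 ± 0.38, Gpnmb by 0.66 ± 0.35 and Trem2 by -0.32 ± 0.22. The Spp1 value was -0.05 without vehicle 4 and -0.33 without Xevinapant 1+2, and that of Gpnmb was -0.07 without Xevinapant 1+2.

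**Figure D5:**
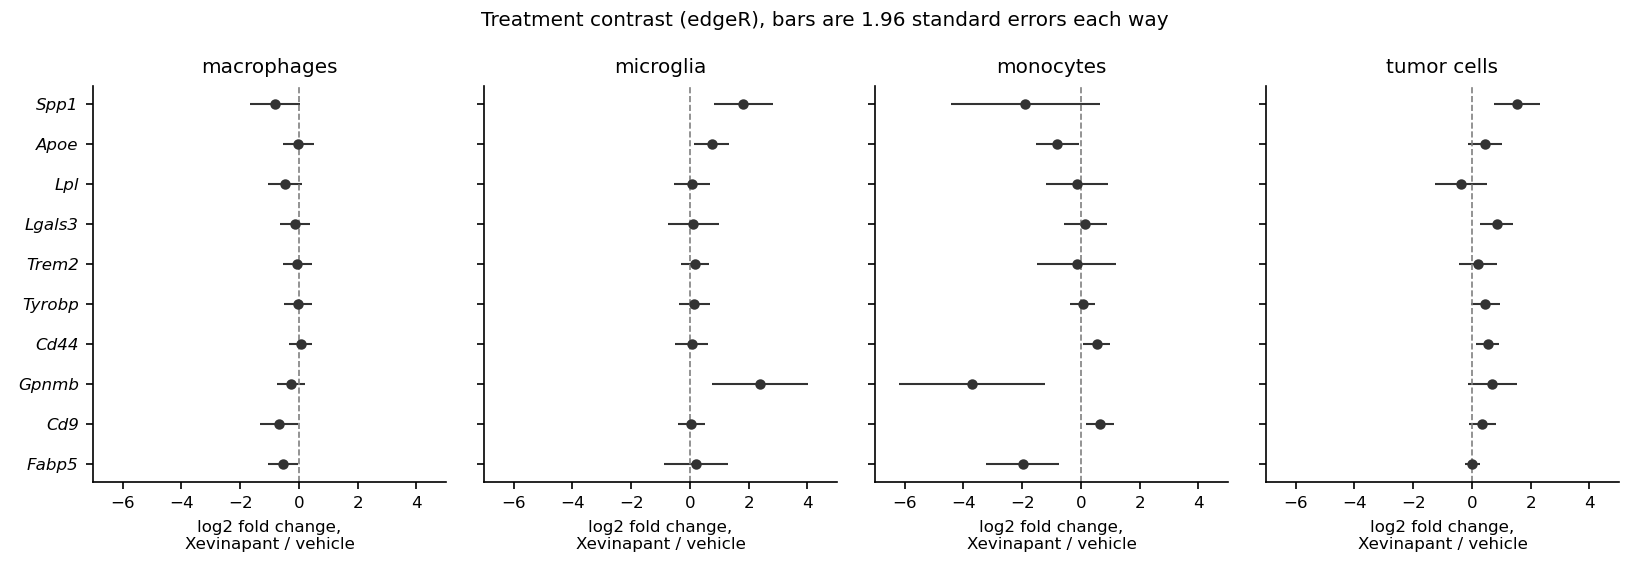
Log2 fold change of each gene, Xevinapant against vehicle (x axis), in macrophages, microglia, monocytes and tumor cells, from edgeR on summed counts; points are estimates and bars 95% intervals by the normal approximation. Spp1 lies at -0.82 in macrophages and 1.83 in microglia, the widest bar is that of Spp1 in monocytes, and no gene passed the adjusted threshold in any class.

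The shares of cells with a UMI gave no call either. In macrophages the share with Spp1 was 55.1% ± 16.1 in vehicle (SD, n = 3) and 53.7% ± 20.8 in Xevinapant (n = 2), that with Gpnmb 49.1% ± 17.8 and 44.8% ± 2.6, and that with Trem2 51.5% ± 11.3 and 50.9% ± 2.3. With a sample left out the differences took either direction, from -16.1 to 13.4, -14.5 to 1.57 and -4.94 to 5.77 percentage points. The share with all 3 was 25.7% ± 14.3 and 20.7% ± 1.2 (exact two-sided permutation test, p = 1). Over 44 such tests in macrophages, microglia, monocytes and tumor cells every adjusted p was 1 (exact permutation tests). With 3 samples against 2 the exact test cannot give a p below 0.2, and with 2 against 2 none below 0.333.

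The other lists were likewise without a call in the treatment contrast of macrophages. None of 18 other lipid-associated macrophage genes (median log2 fold change -0.08), 18 lipid uptake, storage and efflux genes (0.19), 12 TREM2 signalling genes (0.21), 16 lysosome genes (-0.02), 6 osteopontin receptor genes (-0.22) or 8 homeostatic microglia genes (0.06) passed, beside a median of -0.0083 over all genes. At an unadjusted p under 0.05 the counts were 4, 1, 4, 1, 1 and 3, beside 13.6% of all genes. The genes of each list with the most UMIs in these cells, taken as examples and not as a comparison between genes, were Ctsb (0.24 ± 0.28) and Hmox1 (0.76 ± 0.34), Npc2 (-0.18 ± 0.22) and Plin2 (0.51 ± 0.28), Lyn (-0.18 ± 0.26) and Inpp5d (0.20 ± 0.23), Ctsb and Ctsd (-0.35 ± 0.26), Itgb5 (-0.47 ± 0.24) and Itgb1 (-0.10 ± 0.21), and, for the last list, Cst3 (-0.11 ± 0.24), in the order of the lists. In microglia none of the 17, 17, 10, 15, 6 and 8 genes tested passed, with medians from 0.01 to 0.36 beside -0.0050 over all genes, and 3 unadjusted p under 0.05 in all, beside 4.43% of all genes.

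Across 43 combinations of sample and class, from 10 classes, the genes whose log2 level ran most like that of Spp1 were Slc37a2 (Pearson r = 0.882), Hmox1 (0.845), Cndp2 (0.844), Hgf (0.826) and P2ry6 (0.824), among genes with a mean of at least 20 CPM in macrophages. For Gpnmb they were Mmp12 (0.837), Gdf15 (0.829), Hmox1 (0.817), Rnf128 (0.815) and Htr2b (0.813), and for Trem2 Stra6l (0.944), Ms4a14 (0.941), C3ar1 (0.922), Itm2b (0.921) and Siglec1 (0.918). Spp1 and Gpnmb had r = 0.803 with each other, and Trem2 had 0.738 with Spp1 and 0.734 with Gpnmb. Only Hmox1, the heme-degrading oxygenase, stood on 2 of the 3 lists. The points share samples and depth, so these values describe the pattern over classes and carry no test.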

How the data were processed

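The authors deposited UMI counts per gene and cell, made with Cell Ranger (7.1.0 in the matrix headers, 3.0 per the labels) from a probe-based assay on fixed cells, with reads mapped to mm10 (GRCm38). The 10 genes, the lists and the tests were chosen with earlier results of these data known. Cells were kept at 200 genes or more, under 10% mitochondrial UMIs and a complexity over 0.8, and barcodes with the highest Scrublet scores (scanpy 1.11.5) were removed at 0.8% per 1000 barcodes. Classes needed 1000 UMIs and marker UMIs from panels without any of the 10 genes. Alike matrices were joined on gene expression in tumor cells (median chi-square ratio 2.17 to 6.41 in joined pairs, 23.2 to 64.7 in other pairs of a group). A ratio of 1 would be sampling noise alone, so joined pairs still differed by more than that. In macrophages the same ratio did not separate them (1.48 to 1.66 against 1.61 to 2.6). Counts were summed per sample and class with 10 cells or more and tested with edgeR 4.0.16 (quasi-likelihood, Benjamini-Hochberg adjustment over all genes), with DESeq2 1.42.0 as an alternative. For some of the comparisons edgeR, but not DESeq2, was run on simulated counts with the same spread for every gene. That run does not show power or error at the spread between the samples here. Named were the 10 genes, the 2 genes of highest level in each list without a call (1 of them is not reported here), and the 5 genes most like Spp1, Gpnmb and Trem2. Floors (3 counts) cover counting error only, and the intervals of fold changes come from the standard errors over samples. All 4 matrices recorded under the Xevinapant sample have Vehicle in their names behind a prefix that differs from that of the vehicle matrices. Treatment was taken from the GEO label, and the direction of every treatment contrast depends on it.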

Additional observations from a re-analysis of the deposited data

How the results depend on the processing

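No paired analysis was possible because the labels give each treatment as a single pool without a replicate number, and the numbers of the matrices do not carry over once alike matrices are joined (1 with 3 in vehicle, 1 with 2 and 3 with 4 in Xevinapant). In the class comparisons the sample was the block, and without the replicate block Spp1 and Gpnmb fell to 2.32 and 2.36 against monocytes and no longer passed, while no other of the 10 genes lost a call. Without a low-count filter edgeR called 2 of the 10 genes in microglia (24 of all genes), 3 in monocytes (151), 1 in unresolved myeloid cells (263) and 1 in the interaction (78), and DESeq2 called 1 in tumor cells. Leaving out each sample in turn gave 0 to 2 calls in microglia (0 to 3 of all genes), 2 to 4 in monocytes (23 to 118), 0 to 1 in the interaction (0 to 55) and a difference of -10.7 to 2.99 percentage points in the share with all 3 genes. The direction turned for Trem2 in macrophages without the filter (0.029), and with the leading panel alone naming a cell for Gpnmb in macrophages (0.16), Trem2 in microglia (-0.21) and monocytes (0.055), Cd9 against microglia (-0.0091), Tyrobp against monocytes (0.042) and the Spp1 share (1.16 points). It also turned for the Spp1 share without thinning (3.92 points) and, under a stricter gate, in monocytes for Spp1 (3.08) and Gpnmb (1.198). With a sample left out the log2 values ran from -0.16 to 0.22 for Trem2 in macrophages, -0.87 to 3.31 for Gpnmb in microglia, -3.72 to 3.38, -1.22 to 2.24 and -4.73 to 3.93 for Spp1, Trem2 and Gpnmb in monocytes, -0.33 to 0.63 and -0.07 to 1.13 for Spp1 and Gpnmb in unresolved myeloid cells, -0.10 to 0.17 for Cd9 against microglia, and -0.45 to 0.13 and -3.82 to 0.51 for Trem2 and Gpnmb in the interaction. The shares ran from -16.1 to 13.4 points for Spp1, -4.94 to 5.77 for Trem2 and -14.5 to 1.57 for Gpnmb. Within these ranges, Trem2 in monocytes was 0.070 and Gpnmb in unresolved myeloid cells -0.069 without Xevinapant 1+2, Spp1 in unresolved myeloid cells ran from -0.052 without vehicle 4 to 0.45 without vehicle 2, Cd9 against microglia was -0.0020 without vehicle 1+3 and 0.10 without vehicle 4, the Spp1 share was 3.89 points without vehicle 1+3, 2.73 without vehicle 2 and -10.6 without vehicle 4, and the Trem2 share was 1.04 without Xevinapant 1+2. Calls over all genes ranged over these alternatives from 0 to 600 in macrophages (3 as reported), 0 to 24 in microglia (1), 0 to 151 in monocytes (0), 0 to 469 in tumor cells (0), 2 to 263 in unresolved myeloid cells (7) and 0 to 78 in the interaction (2). The causes were not tested. The stricter gate was not run in microglia, and vehicle 2 had too few monocytes to enter or be left out.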
